A study of Mus musculus with 34 samples.

Results

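The 10 genes described here set or release the brake on the cell cycle when myoblasts stop dividing: the D cyclins Ccnd1, Ccnd2 and Ccnd3, the cyclin-dependent kinase inhibitors Cdkn1a, Cdkn1b, Cdkn2c and Cdkn2d, the retinoblastoma gene Rb1, the tumour suppressor Trp53 and its ubiquitin ligase Mdm2. They were chosen by name, as 10 of the 21627 protein-coding genes with bins in use. Each locus is the gene with 20 kb on either side in GRCm38, cut into the 1 kb bins of the deposited count table, which gave 732 of 2631630 bins used. Bins within 1 kb of a gene coordinate form a gene end (3 bins), bins between the ends form the interior, and bins beyond the ends form the flanks. Cdkn2d spans 3.0 kb and has no interior, whereas Rb1 spans 133.1 kb and Ccnd3 94.6 kb.

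The libraries come from C2C12, an established mouse myoblast line, and were made by multi-target chromatin integration labelling, in which an antibody-tethered DNA probe is inserted into nearby chromatin of fixed cells by Tn5 transposase and amplified by transcription. H3K4me3 (mouse monoclonal antibody) and CTCF (rabbit monoclonal) were stained in the same 10000 or 1000 cells, a dual staining. H3K27ac and Pol2S2P, the elongating form of RNA polymerase II (both mouse monoclonal), were stained together in 1000 or 100 cells. CTCF alone in 10000 cells and Pol2S2P alone in 1000 cells served as single stainings, with 3 libraries in each of the 8 dual groups and 2 in each of the 2 single groups. The labels name no genotype, drug or differentiation treatment, so every comparison is between targets, cell numbers or stainings within the same line. A further 6 samples of 100 cells, made by a primary-antibody form of the method, were not analysed here.

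D cyclins bind CDK4 and CDK6, and these complexes phosphorylate the retinoblastoma protein, which then releases E2F transcription factors that drive genes of DNA synthesis. INK4 inhibitors (p18 from Cdkn2c, p19 from Cdkn2d) bind CDK4 and CDK6 directly, whereas CIP/KIP inhibitors (p21 from Cdkn1a, p27 from Cdkn1b) bind assembled cyclin-kinase complexes. In differentiating myoblasts p21, cyclin D3 and the retinoblastoma protein are known for their part in lasting exit from the cycle, and p53 induces both Cdkn1a and Mdm2. H3K4me3 marks gene starts, H3K27ac marks active starts and enhancers, Pol2S2P accompanies elongation, and CTCF is a zinc-finger protein that binds DNA by its own motif.

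Counts per library ran from 719766 to 6653298, and values are given as counts per 1000000 of that total (CPM). The genome mean was 0.38 CPM per bin, and a count of 0 allows up to 0.451 to 4.17 CPM depending on the library (3 counts, counting error only). Values after ± are SD over 3 libraries, or 2 for single stainings, and log2 fold changes carry their SE. The labels do not say whether replicates are separate cultures, and the p-values reflect only the spread between these libraries, which may be technical. The 3 H3K4me3 libraries of 10000 cells differed by no more than sampling noise (chi-square of 0.971 to 1.00 per degree of freedom over 10536 to 11085 gene ends). Summing them to 1 sample, an alternative chosen after seeing the data, changed no call on these 10 genes. Among the 7 myoblast markers, H3K4me3 at the richer gene end in 10000 cells had a median of 11.8 times the genome mean, with Vim at 86.4, Myf5 at 37.7, Myod1 at 1.76 and Pax7 at 0.296. The 7 markers of differentiated muscle had a median of 1.12 (range 0.404 to 4.73), 4 fibroblast and matrix genes had 35.4 (range 12.7 to 49.5), and blood, liver and neural lists had medians of 1.26 to 1.32.

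Of the 10 genes, 7 matched an entry with strand among RefSeq promoter sequences (GRCm38.p6), so their ends are called start and far end; ends of Ccnd1, Ccnd2 and Rb1 are called by coordinate. Cdkn1a, Ccnd3 and Cdkn2c each have 2 annotated starts that differed in H3K4me3, and Mdm2 holds matches to a CTCF core, so their promoters are shown from 250 bases before to 50 bases after the start, 5′ to 3′ on the strand of the gene. Capitals mark matches, on either strand, to any of the motifs searched, and matches that touch or overlap run together. GGGCGG is the GC box, bound by Sp1 family proteins. CAGCTG is an E-box of the form that myogenic factors such as MyoD bind. CCAAT is bound by NF-Y, and TATAAA is the classical TATA box of core promoters. E2F factors bind sites such as TTTCCCGC or TTTGGCGC, while TGANTCA is bound by the AP-1 family and TGACGTCA by CREB and its relatives. A CTCF core motif and a p53 motif were searched as well. The p53 motif here is a single 10-base element and not a whole p53 site.
Cdkn1a first start, chr17:29090729-29091028, plus strand: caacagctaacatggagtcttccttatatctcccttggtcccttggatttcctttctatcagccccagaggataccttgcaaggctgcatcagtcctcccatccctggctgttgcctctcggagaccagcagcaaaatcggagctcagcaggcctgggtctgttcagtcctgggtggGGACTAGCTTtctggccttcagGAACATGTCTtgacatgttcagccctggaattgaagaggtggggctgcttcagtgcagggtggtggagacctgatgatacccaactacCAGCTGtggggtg
Cdkn1a second start, chr17:29093519-29093818, plus strand: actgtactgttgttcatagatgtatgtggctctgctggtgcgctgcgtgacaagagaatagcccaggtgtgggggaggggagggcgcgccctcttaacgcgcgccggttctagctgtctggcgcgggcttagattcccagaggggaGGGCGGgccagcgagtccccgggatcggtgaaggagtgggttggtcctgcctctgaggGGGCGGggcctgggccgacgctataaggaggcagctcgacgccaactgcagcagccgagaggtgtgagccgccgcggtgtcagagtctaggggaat
Ccnd3 first start, chr17:47504801-47505100, plus strand: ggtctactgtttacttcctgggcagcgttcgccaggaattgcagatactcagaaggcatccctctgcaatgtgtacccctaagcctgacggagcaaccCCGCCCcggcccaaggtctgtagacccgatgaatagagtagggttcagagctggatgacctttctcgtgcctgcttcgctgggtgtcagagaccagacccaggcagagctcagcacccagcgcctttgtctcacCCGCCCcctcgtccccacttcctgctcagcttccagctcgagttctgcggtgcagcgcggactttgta
Ccnd3 second start, chr17:47593217-47593516, plus strand: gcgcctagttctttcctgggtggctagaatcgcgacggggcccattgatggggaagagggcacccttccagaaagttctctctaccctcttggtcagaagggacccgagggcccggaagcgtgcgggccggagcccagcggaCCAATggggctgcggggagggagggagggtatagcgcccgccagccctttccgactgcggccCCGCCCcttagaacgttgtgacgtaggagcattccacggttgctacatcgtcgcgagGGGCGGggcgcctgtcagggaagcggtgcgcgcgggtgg
Cdkn2c upstream start, chr4:109666707-109667006, minus strand: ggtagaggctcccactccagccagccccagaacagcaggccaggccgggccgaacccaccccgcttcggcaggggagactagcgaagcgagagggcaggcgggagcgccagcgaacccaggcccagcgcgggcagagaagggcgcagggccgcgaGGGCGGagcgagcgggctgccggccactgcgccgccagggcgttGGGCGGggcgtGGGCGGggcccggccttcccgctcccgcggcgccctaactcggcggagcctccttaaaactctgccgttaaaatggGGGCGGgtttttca
Cdkn2c downstream start, chr4:109665323-109665622, minus strand: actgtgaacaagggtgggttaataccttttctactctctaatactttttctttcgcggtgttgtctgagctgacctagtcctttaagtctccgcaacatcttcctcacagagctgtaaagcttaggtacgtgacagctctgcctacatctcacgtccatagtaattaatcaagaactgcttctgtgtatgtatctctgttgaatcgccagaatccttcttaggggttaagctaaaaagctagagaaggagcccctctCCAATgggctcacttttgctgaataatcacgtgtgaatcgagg
Mdm2 start, chr10:117710709-117711008, minus strand: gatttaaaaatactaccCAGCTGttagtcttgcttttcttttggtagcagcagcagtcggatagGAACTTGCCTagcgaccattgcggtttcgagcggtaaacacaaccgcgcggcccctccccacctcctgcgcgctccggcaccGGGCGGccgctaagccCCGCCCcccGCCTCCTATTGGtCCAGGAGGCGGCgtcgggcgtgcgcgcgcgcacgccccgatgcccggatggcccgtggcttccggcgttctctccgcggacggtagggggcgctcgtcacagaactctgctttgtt

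The first Cdkn1a promoter holds 2 CpG dinucleotides and 54.7% GC, with 1 E-box and 2 p53 motif matches, whereas the second holds 23 CpG and 64.7% GC with 2 GC boxes and no E-box or p53 match. For Ccnd3, the first window has 15 CpG and 59.3% GC and the second 28 CpG and 67.0% GC. Each of these windows holds 2 GC boxes. In Cdkn2c the upstream window is the richer (33 CpG, 73.3% GC, 4 GC boxes) and the downstream window has 8 CpG and 44.0% GC. Mdm2 has 35 CpG and 64.7% GC, with 2 CTCF core matches, 2 GC boxes and 1 each of E-box, CCAAT and p53 motif. Among promoters not printed, Cdkn1b holds 30 CpG, Cdkn2d 22 and Trp53 10. Over 32817 RefSeq promoters the median was 7 CpG and 52.7% GC. A GC box occurs in 35.6% of them, CCAAT in 37.4%, an E-box in 16.3%, the p53 motif in 8.36% and the CTCF core in 2.43%. The remaining motifs occur in 13.6% (TATA box), 7.81% (AP-1), 1.79% (CRE), 1.07% (TTTCCCGC) and 0.515% (TTTGGCGC). These matches are letters in a window and were not tested as sites.

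H3K4me3 against CTCF separates a start mark from a DNA-binding protein mapped in the same cells. In 10000 cells, 14 of the 20 ends had enough counts to be tested, 12 were higher in H3K4me3, 1 was lower and 1 did not pass. Over all 13870 ends tested, 75.8% were higher and 11.4% lower, so this count lies near the background. Some ends, among them the Cdkn1a start and the Rb1 end, had enough counts for the test only in H3K4me3, which largely set their direction. The median log2 fold change of the tested ends of the 10 genes was 1.82, beside 1.73 over all ends, and TMM or DESeq2 scaling takes the latter to 0.03 or 0.00. With this scaling the share of higher ends among all calls went from 86.9% to 49.4% (TMM) or 46.5% (DESeq2). Both ends of Cdkn1b, Ccnd1, the Cdkn2c start and the Cdkn2d far end stayed higher, whereas the Cdkn2c far end (0.03), Ccnd2 (0.23), Rb1 (0.21) and Trp53 (0.02) lost their calls under TMM, and the starts of Cdkn2d (-0.12), Mdm2 (-0.06) and Cdkn1a (-0.05) turned, Trp53 turning too under DESeq2 (-0.01). The values below are on the library-size scale.

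Trp53, which encodes the stress-responsive factor p53, had the highest H3K4me3 level among the 20 gene ends. Its start carried 91.7, 92.2 and 93.8 CPM in the 3 libraries of 10000 cells, beside 30.9, 25.6 and 27.1 CPM of CTCF. All H3K4me3 libraries lay above all CTCF libraries, and the log2 fold change was 1.73 ± 0.11 (adjusted p = 4.52e-28, edgeR). The same window holds the start of Wrap53, an antisense neighbour, so counts there cannot be assigned to either gene. CTCF at the Trp53 start was also the highest among these ends, at 24.4 ± 2.42 times the genome mean and percentile 99.9 of all genes. The peak bins of the targets differed, although H3K4me3 was high in both. The bin chr11:69578721-69579720 had 16.3 ± 0.86 CPM of CTCF and 30.4 ± 1.31 CPM of H3K4me3, and chr11:69580721-69581720 had 5.89 ± 0.88 CPM of CTCF and 41.5 ± 1.07 CPM of H3K4me3. With CTCF stained alone the Trp53 start held 27.3 and 24.7 CPM, beside 27.8 ± 2.76 CPM in dual staining.

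Mdm2, the ligase that marks p53 for degradation, had 38.8, 45.1 and 42.1 CPM of H3K4me3 at its start and 12.7, 14.9 and 12.5 CPM of CTCF. The groups did not overlap (log2 fold change 1.65 ± 0.15, adjusted p = 9.01e-19). Within that start the H3K4me3 peak and the promoter motifs fell in neighbouring bins. The bin just inside the gene, chr10:117709521-117710520, had 34.4 ± 2.62 CPM of H3K4me3 and 7.12 ± 1.46 of CTCF (2.27 ± 0.17). The next bin, chr10:117710521-117711520, holds the printed Mdm2 promoter with the CTCF core matches and had 5.87 ± 2.09 CPM of H3K4me3 and 5.05 ± 0.87 of CTCF. Their difference of 0.23 ± 0.31 did not pass (adjusted p = 0.508). That bin turned and passed as lower in H3K4me3 under TMM (-0.74, adjusted p = 0.02) and DESeq2 (-0.98, 0.0394). The far end of Mdm2 was the end called lower in H3K4me3, at 4.23, 5.07 and 7.59 CPM beside 9.70, 8.20 and 8.61 CPM of CTCF (-0.66 ± 0.29, adjusted p = 0.031). The call was lost without H3K4me3 replicate 1 (-0.52, adjusted p = 0.138) or 2 (-0.57, 0.142), without CTCF replicate 1 (-0.58, 0.072) and with no filter on low counts (0.0772).

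Among the kinase inhibitors, Cdkn2c (p18) had 57.9, 57.3 and 75.9 CPM of H3K4me3 at its start, beside 10.1, 11.3 and 15.0 CPM of CTCF (2.40 ± 0.14, adjusted p = 1.59e-30). The H3K4me3 peak of Cdkn2c lay further into the gene, at 41.5 ± 1.27 CPM in chr4:109664556-109665555, the bin with the downstream RefSeq start. Over the 3 bins around that start the level was 95.8 ± 7.28 CPM, against 63.7 ± 10.6 CPM around the upstream, CpG-richer start, and the windows share a bin. Cdkn1b (p27) had 47.3, 37.0 and 53.1 CPM at its start and 40.9, 34.0 and 53.8 CPM at its far end. CTCF at the Cdkn1b start was 3.84, 5.91 and 6.64 CPM, and the log2 fold change was 3.05 ± 0.18 (adjusted p = 3.85e-31). Every bin from chr6:134919451 to 134932450 passed as higher in H3K4me3 (under DESeq2 the bin at the far end did not, 1.13, adjusted p = 0.0586), with a first peak of 28.6 ± 4.23 CPM inside Cdkn1b and a second of 35.8 ± 1.01 CPM 3.4 kb beyond it. An end of Lockd, a long noncoding RNA gene, lies within 1 kb of the second peak bin. Counts there cannot be assigned to Cdkn1b alone. Cdkn2d (p19) had 28.2, 29.4 and 42.1 CPM at its far end and 23.99, 25.8 and 23.5 CPM at its start. The Kri1 start adjoins that far end, so the 3 bins there serve both genes.

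Cdkn1a (p21) stood apart from the other inhibitors at its outer start. There H3K4me3 was 6.35, 4.56 and 6.21 CPM and CTCF 1.82, 0.572 and 3.20 CPM, which differed without overlap (1.65 ± 0.42, adjusted p = 0.000198). Around the second annotated start H3K4me3 was 29.6, 25.3 and 32.4 CPM and CTCF 5.05, 5.15 and 6.15 CPM. The peak bin chr17:29093886-29094885 had 15.2 ± 3.25 CPM of H3K4me3 against 1.84 ± 0.63 of CTCF (2.95 ± 0.30, adjusted p = 1.07e-16). The next bin, chr17:29094886-29095885, was the CTCF peak of the locus at 9.93 ± 1.28 CPM, beside 14.0 ± 1.97 of H3K4me3. There the difference was 0.54 ± 0.21 (adjusted p = 0.0167) and was lost without H3K4me3 replicate 2 (0.39, adjusted p = 0.193) or CTCF replicate 2 (0.45, 0.0562). The bin turned and passed as lower in H3K4me3 under TMM (-0.43, adjusted p = 0.0482) and DESeq2 (-0.68, 0.0324).

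**Figure D1:**
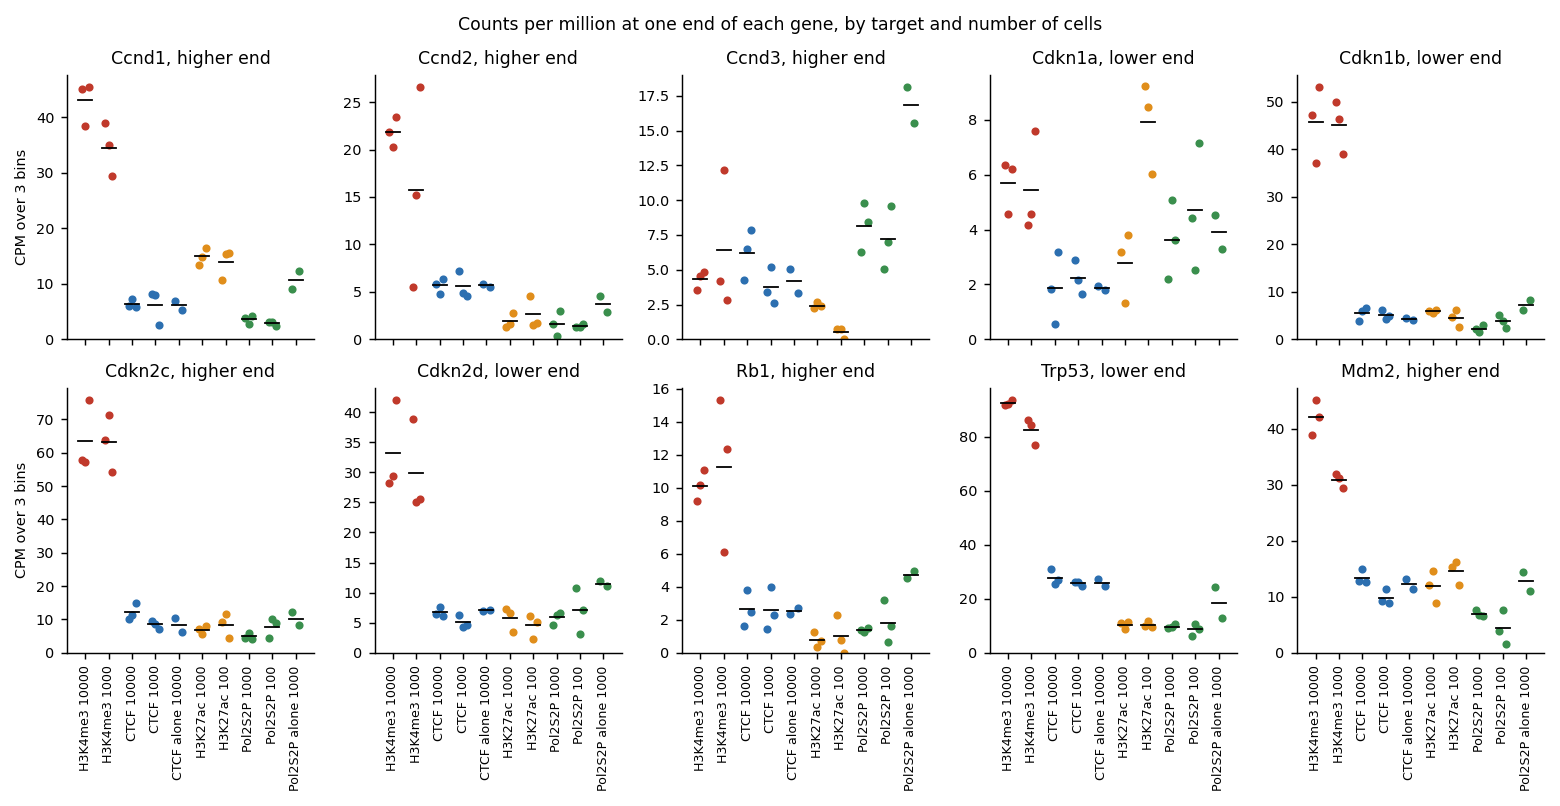
Scaled counts (CPM, linear axis from 0) over the 3 bins at 1 end of each gene, the end with more H3K4me3 counts, for 10 groups named by target and number of cells. Points are libraries and bars are group means; H3K4me3 lies highest in 8 panels, from 10.1 CPM (Rb1) to 92.6 CPM (Trp53) in 10000 cells, and is lowest among the genes at Ccnd3 (4.31 CPM) and Cdkn1a (5.71 CPM).

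The D cyclins differed from each other in the same way. Ccnd1 (cyclin D1) had 45.2, 38.5 and 45.5 CPM of H3K4me3 at its higher-coordinate end and 6.06, 7.25 and 5.90 CPM of CTCF (2.71 ± 0.17, adjusted p = 3.93e-29). Ccnd2 (cyclin D2) had 21.9, 20.3 and 23.5 CPM at its higher-coordinate end, beside 5.86, 4.77 and 6.39 CPM of CTCF (1.94 ± 0.21, adjusted p = 1.28e-14). In both loci the CTCF peak bin lay inside the gene, beside bins rich in H3K4me3. The Ccnd2 peak bin also lies within 1 kb of an end of 9330179D12Rik, a long noncoding RNA gene, so its counts cannot be assigned to Ccnd2 alone. At Ccnd2 that bin, chr6:127147486-127148485, had 9.92 ± 0.39 CPM of CTCF and 7.19 ± 2.74 of H3K4me3 (-0.49 ± 0.25, adjusted p = 0.0755), which passed as lower without H3K4me3 replicate 3 (-0.82, adjusted p = 0.0207) and under TMM (-1.45, 3.24e-08) and DESeq2 (-1.69, 1.14e-05). At Ccnd1, chr7:144937411-144938410 had 7.29 ± 1.67 CPM of CTCF and 15.0 ± 1.28 of H3K4me3 (1.00 ± 0.22, which fell to 0.03 under TMM and turned under DESeq2, -0.18).

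Ccnd3 (cyclin D3) showed neither end marked. Its first start had 1.41, 2.53 and 2.76 CPM of H3K4me3 and 1.82, 2.48 and 1.72 CPM of CTCF, too few counts to be tested. Its far end had 3.53, 4.56 and 4.83 CPM of H3K4me3 beside 4.24, 6.49 and 7.87 CPM of CTCF, groups that overlapped (-0.49 ± 0.35, adjusted p = 0.181), and it passed as lower under TMM (-2.19, adjusted p = 3.3e-09) and DESeq2 (-2.24, 1.49e-06). Around the second RefSeq start, inside the gene, H3K4me3 was 31.8, 24.3 and 29.0 CPM against 5.25, 4.77 and 6.15 CPM of CTCF. The highest bin there, chr17:47593811-47594810, had 17.1 ± 3.12 CPM against 3.19 ± 0.53 (2.39 ± 0.25, adjusted p = 1.34e-15). Of the 2 printed Ccnd3 windows, the second, CpG-richer one had the higher H3K4me3 level in the bins around it, as at Cdkn1a. At Cdkn2c the level was higher around the CpG-poorer start. The bins around the Cdkn2c starts adjoin and share a bin, so the counts cannot be assigned to either start.

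Rb1, the retinoblastoma gene, had 9.17, 10.1 and 11.04 CPM of H3K4me3 at its higher-coordinate end beside 1.62, 3.82 and 2.46 CPM of CTCF (1.91 ± 0.32, adjusted p = 7.43e-08). Its lower-coordinate end was at 0 in all 28 libraries. A far stronger H3K4me3 peak lay inside the gene at Lpar6, a receptor gene within Rb1, with 36.9 ± 3.36 CPM in chr14:73238706-73239705 against 2.85 ± 1.03 of CTCF (3.67 ± 0.20, adjusted p = 1.39e-34). The CTCF peak of the locus, chr14:73302706-73303705, lay 22.7 kb inside the higher-coordinate end, with 4.53 ± 1.15 CPM of CTCF and 0.93 ± 0.81 of H3K4me3 (-2.41 ± 0.57, adjusted p = 7.27e-05). CTCF there was 5.05 CPM in 1000 cells and 5.44 CPM when stained alone.

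**Figure D2:**
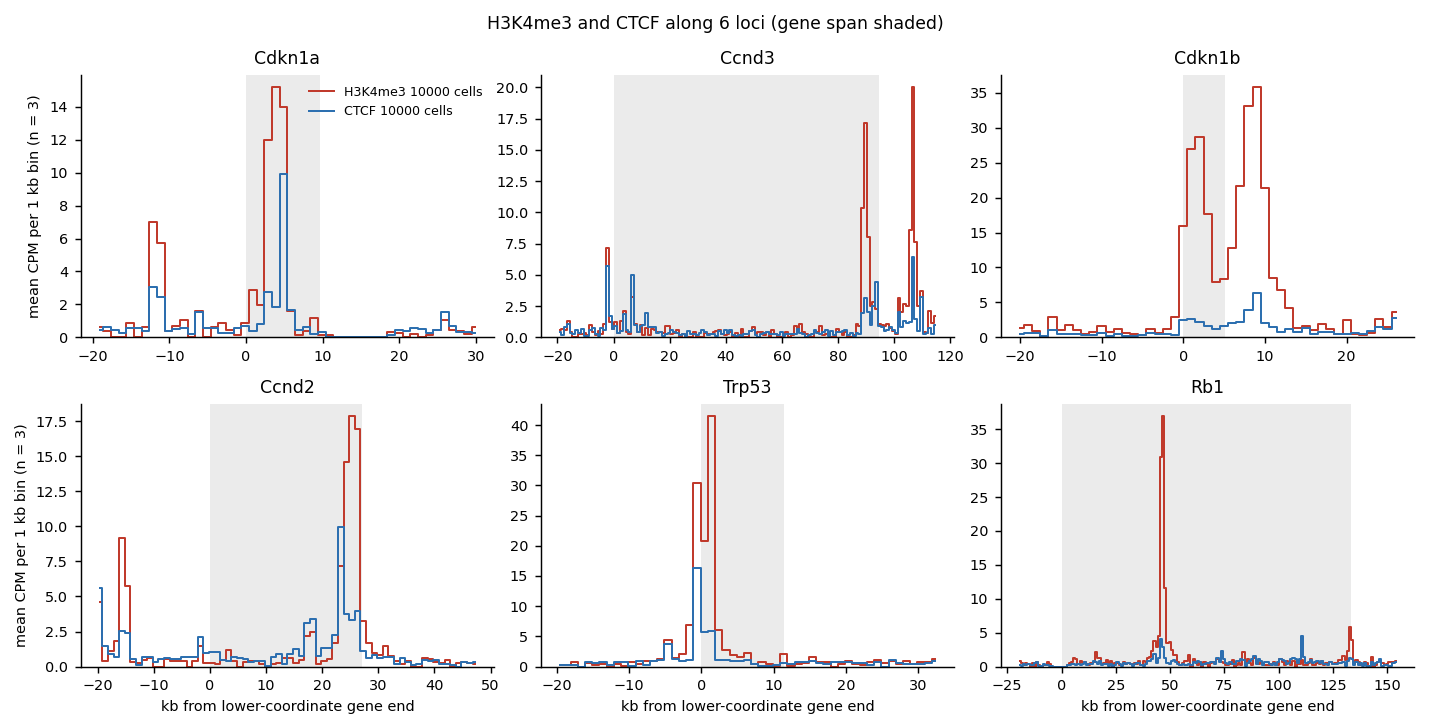
Mean CPM per 1 kb bin (vertical axis, linear, n = 3 libraries) of H3K4me3 and CTCF in 10000 cells against distance in kb from the lower-coordinate gene end, with the gene shaded. Bins are drawn too far right of the shading by less than 1 kb. H3K4me3 peaks inside the gene at Cdkn1a (15.2 CPM), and the Rb1 peak of 36.9 CPM lies at Lpar6. Ccnd3 and Cdkn1b each show a peak inside (17.1 and 28.6 CPM) and a higher one beyond the gene (20.03 and 35.8 CPM).

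Bin by bin, 80 of the 732 bins were tested in 10000 cells, 63 were higher in H3K4me3, 4 lower and 13 did not pass. Over 44023 bins tested genome-wide, 53.9% were higher and 29.4% lower. Their median was 1.03, and scaling took it to 0.08 (TMM) or -0.16 (DESeq2) and the share of higher bins among calls from 64.7% to 50.1% or 41.6%. The 4 lower bins were the Rb1 CTCF peak, chr10:117676521-117677520 in the far flank of Mdm2 (-1.80 ± 0.47), and a bin at each far end of Mdm2 (-1.04 ± 0.43) and Ccnd3 (-0.92 ± 0.43). The last 2 were lost when any H3K4me3 replicate was left out (adjusted p = 0.0534 to 0.11). Ends make up 8.2% of the bins of the 10 loci and held 28.3% ± 2.36 of the H3K4me3 counts of those loci, 18.2% ± 0.684 of CTCF, 14.3% ± 0.707 of H3K27ac in 1000 cells and 13.3% ± 0.234 of Pol2S2P in 1000 cells.

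In the flanks of 20 kb, all 20 were tested, 11 were higher in H3K4me3 and 1 lower, where 28.1% of all 35399 flanks were higher and 30.8% lower. Several of the larger values belong to neighbours of the 10 genes. The flank beyond the Cdkn1b far end had 123, 130 and 135 CPM against 26.5, 27.9 and 31.0 CPM of CTCF (2.19 ± 0.10), and its peak bin lies within 1 kb of an end of Lockd. The flank before the Cdkn2c start had 105 ± 5.63 against 28.5 ± 3.93 CPM (1.88 ± 0.10), and its peak bin of 39.5 ± 1.49 CPM lies at the start of Faf1. The flank beyond Ccnd3 had 62.0 ± 7.03 against 23.6 ± 1.35 CPM (1.37 ± 0.12), with its peak of 20.03 ± 1.62 CPM at the starts of Bysl, Gm20517 and Med20. In the Ccnd3 and Cdkn1b loci these flank peak bins were also the CTCF peaks over both cell numbers. CTCF there was 6.45 ± 1.36 and 6.41 ± 0.43 CPM in 10000 cells. Mdm2 alone had a flank lower in H3K4me3, beyond its far end toward Cpm, at 16.9, 14.7 and 8.97 CPM against 26.7, 30.5 and 26.3 CPM (-1.03 ± 0.18, adjusted p = 1.76e-07). Of the smaller calls, Ccnd2 (lower-coordinate flank, 0.37) was lost without H3K4me3 replicate 1 (0.36, adjusted p = 0.0856) or 2 (0.28, 0.226) and without CTCF replicate 1 (0.35, 0.0634) or 2 (0.30, 0.117). Ccnd1 (lower-coordinate flank, 0.57) and the flank before Cdkn1a (0.56) were lost without H3K4me3 replicate 1 (0.37, adjusted p = 0.196, and 0.41, 0.115).

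In 1000 cells, 10 ends of 8 genes were tested and all 10 were higher in H3K4me3, where 83.1% of all 10166 ends were higher and 6.85% lower. Some of the 10, among them Rb1 and the Cdkn1b far end, had enough counts for the test only in H3K4me3. Their direction was largely set by the filter, and ends low in both targets were not tested. The median over the 10 ends was 2.20, beside 2.05 over all ends. Removing that shift took the share of higher ends among all calls from 92.4% to 45.7% (TMM) or 40.9% (DESeq2). Under TMM Ccnd1 (0.45) and the Cdkn2d far end (0.52) then lost their calls, and Ccnd2 (-0.40), Rb1 (-0.09) and the starts of Cdkn2d (-0.68), Mdm2 (-0.39) and Trp53 (-0.35) turned, as they did under DESeq2. The Trp53 start passed as lower in H3K4me3 under TMM (adjusted p = 0.038) and did not pass under DESeq2 (0.0928). Cdkn1b led again, at its far end with 44.5, 33.4 and 37.0 CPM against 2.41, 3.98 and 3.60 CPM of CTCF (3.42 ± 0.29, adjusted p = 1.03e-16). The start of Cdkn2c had 63.9, 71.4 and 54.1 CPM against 9.64, 8.58 and 7.20 CPM (2.92 ± 0.21), and that of Trp53 86.1, 84.3 and 76.9 against 26.0, 26.1 and 24.9 CPM (1.68 ± 0.15). Ccnd2 had the widest spread, with 5.56, 15.2 and 26.6 CPM of H3K4me3 against 7.23, 4.90 and 4.58 CPM, so its groups overlapped although the difference passed (1.61 ± 0.36, adjusted p = 5.23e-05). Around the second starts, H3K4me3 was 26.9 ± 1.13 CPM at Cdkn1a and 22.2 ± 1.46 at Ccnd3. Of 18 flanks tested in 1000 cells, 9 were higher and 1 lower, against 27.5% and 24.9% of all flanks; the lower one, beyond Mdm2 (-0.80, adjusted p = 0.00225), was lost without H3K4me3 replicate 2 (-0.60, 0.0715). The flank before Cdkn1a (0.80) was lost without H3K4me3 replicate 1 (0.72, adjusted p = 0.0531) or 3 (0.41, 0.356). The lower-coordinate flank of Ccnd1 (0.65, adjusted p = 0.0446) kept its call without CTCF replicate 1 and lost it without any other library (0.54 to 0.70, 0.0822 to 0.136).

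Other genes of the cycle, 33 in all with other CDKs, cyclins, E2F and p53 target genes, gave 30 higher and 2 lower of 36 tested ends in 10000 cells, and 27 higher and 1 lower of 28 in 1000 cells. The largest differences in 10000 cells were at Zmat3 (3.13), a p53 target, the kinase gene Cdk6 (2.89), Phlda3 (2.86) and Cdk4 (2.83). These shares, too, lie beside the backgrounds of 75.8% and 83.1% higher.

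H3K27ac against Pol2S2P sets a mark of active starts and enhancers beside elongating polymerase in the same cells. In 1000 cells, 15 of the 20 ends were tested, 4 were higher in H3K27ac (Ccnd1, both ends of Cdkn1b, and the Mdm2 start), 2 were higher in Pol2S2P (the far ends of Ccnd3 and Cdkn1a) and 9 did not pass. Of all 10824 ends tested, 10.8% were higher in H3K27ac and 19.8% in Pol2S2P, with a median log2 fold change of -0.12, beside 0.00 for the 15. Scaling moved the share of higher ends among all calls from 35.3% to 47.1% (TMM) or 48.4% (DESeq2).

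Ccnd1 had the largest H3K27ac level of the 10 genes at an end and the largest difference. Its higher-coordinate end carried 13.4, 14.9 and 16.5 CPM of H3K27ac and 3.84, 2.85 and 4.21 CPM of Pol2S2P (2.02 ± 0.29, adjusted p = 3.56e-09). The opposite end of Ccnd1, where the gene LTO1 ends, held its Pol2S2P peak bin and had 5.49, 3.80 and 8.71 CPM of Pol2S2P beside 5.42, 2.65 and 2.75 CPM of H3K27ac (-0.72 ± 0.35, adjusted p = 0.111). Without H3K27ac replicate 1 that end passed as higher in Pol2S2P (-1.14, adjusted p = 0.0344). H3K27ac thus lay toward the H3K4me3-marked end of Ccnd1 and, in these bins, Pol2S2P lay highest at the other.

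Cdkn1b had 6.05, 5.63 and 6.19 CPM of H3K27ac at its start against 2.19, 1.58 and 3.01 CPM of Pol2S2P (1.38 ± 0.38, adjusted p = 0.00244). Its far end had 10.8, 10.6 and 10.7 CPM against 4.94, 4.75 and 5.41 CPM (1.08 ± 0.29, adjusted p = 0.00163). The Mdm2 start had 12.1, 14.6 and 8.95 CPM of H3K27ac against 7.68, 6.65 and 6.61 CPM of Pol2S2P (0.76 ± 0.26, adjusted p = 0.0173). That Mdm2 call was lost without H3K27ac replicate 2 (0.59, adjusted p = 0.146) and without Pol2S2P replicate 2 (0.73, 0.0564) or 3 (0.72, 0.063). The Trp53 start had 10.4 ± 1.53 CPM of H3K27ac and 9.69 ± 0.751 CPM of Pol2S2P, and the groups overlapped (0.10 ± 0.25, adjusted p = 0.806).

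The 2 ends with more Pol2S2P were far ends of genes. At Ccnd3, Pol2S2P was 6.31, 9.81 and 8.41 CPM against 2.23, 2.65 and 2.41 CPM of H3K27ac (-1.73 ± 0.36, adjusted p = 4.51e-05). Bysl ends within this Ccnd3 window, so counts there cannot be assigned to either gene. At Cdkn1a, Pol2S2P was 5.21, 3.80 and 4.51 CPM against 0.956, 2.65 and 1.03 CPM (-1.53 ± 0.45, adjusted p = 0.00532), a call lost with DESeq2 (-1.40, 0.106) and without Pol2S2P replicate 1 (-1.41, 0.0636). Around the Cdkn1a second start, H3K27ac was 5.42, 8.61 and 8.95 CPM and Pol2S2P 4.94, 5.38 and 6.31 CPM, which overlap.

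**Figure D3:**
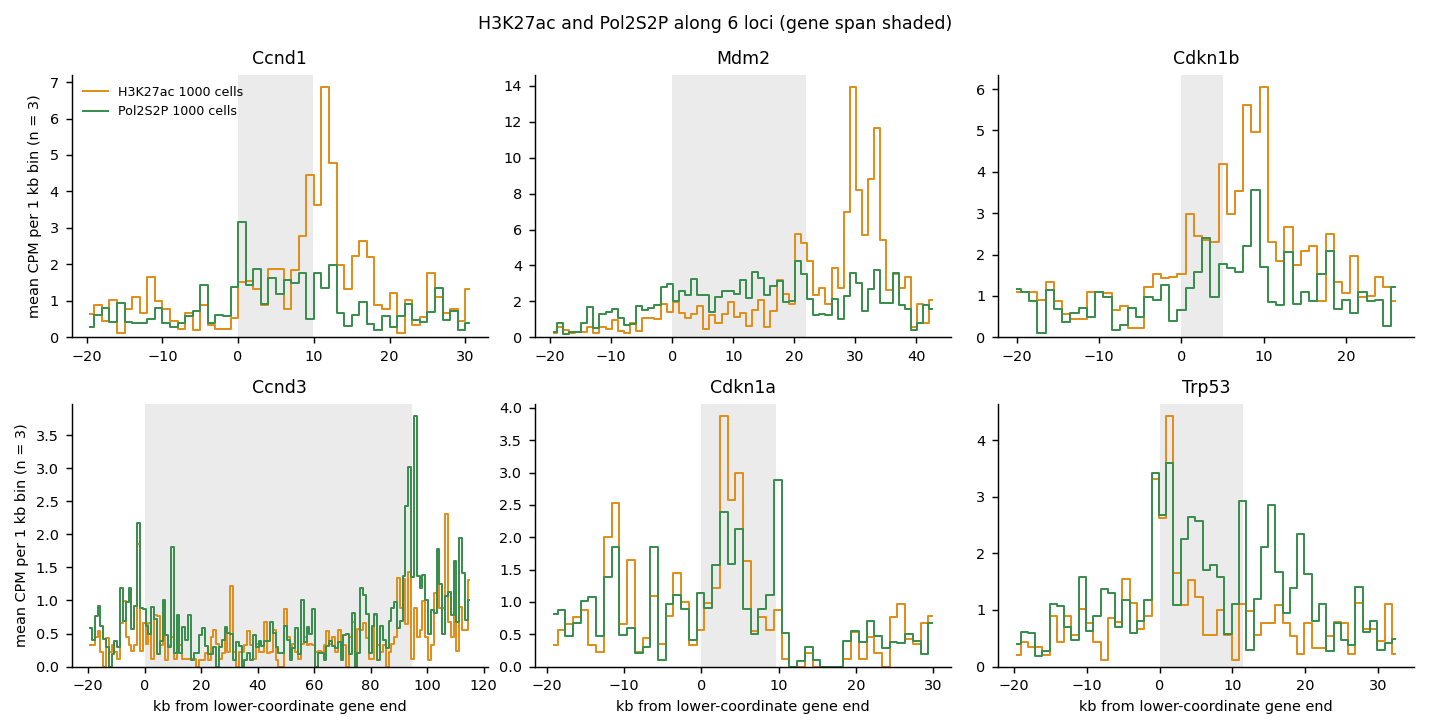
Mean CPM per 1 kb bin (vertical axis, linear, n = 3 libraries) of H3K27ac and Pol2S2P in 1000 cells against distance in kb from the lower-coordinate gene end, with the gene shaded. Bins are drawn too far right of the shading by less than 1 kb. H3K27ac peaks beyond the Mdm2 start (13.9 CPM) and at the higher-coordinate end of Ccnd1 (6.87 CPM), whereas Pol2S2P lies along the body of Mdm2 and rises at the far ends of Ccnd3 and Cdkn1a.

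Mdm2 carried its strongest H3K27ac outside the gene. The flank before its start had 86.3, 88.5 and 93.9 CPM of H3K27ac against 37.6, 38.9 and 37.3 CPM of Pol2S2P (1.24 ± 0.11, adjusted p = 9.45e-20). The peak bin chr10:117717521-117718520, 7.3 kb before the start, had 11.5, 15.6 and 14.8 CPM of H3K27ac and 2.74, 4.75 and 3.31 CPM of Pol2S2P. A second peak at chr10:117721521-117722520 had 11.6 CPM of H3K27ac and 3.77 of Pol2S2P. In 100 cells the same flank had 85.2, 96.2 and 91.5 CPM of H3K27ac and 38.0, 49.5 and 43.8 CPM of Pol2S2P, again without overlap. Flanks were not tested in 100 cells.

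Of the 20 flanks in 1000 cells, 3 were higher in H3K27ac and 5 in Pol2S2P, where 8.26% and 27.4% of all 35675 flanks were. Beside Mdm2, the 2 higher flanks were those of Ccnd1 (higher-coordinate side, 26.2 ± 5.03 against 12.3 ± 2.34 CPM, 1.1 ± 0.18) and Cdkn1b (beyond the far end, 42.8 ± 6.06 against 24.1 ± 2.16 CPM, 0.84 ± 0.14). Each of these lies beside an end that also passed. The H3K27ac peak bin of the Cdkn1b locus, in that flank, lies within 1 kb of an end of Lockd. Pol2S2P was higher in the flanks beyond the far ends of Mdm2 (-0.86), Cdkn2d (-0.86), Trp53 (-0.77) and Cdkn2c (-0.48), and before the start of Ccnd3 (-0.70). The median over all flanks was -0.29, and removing it took the share of higher calls from 23.1% to 51.1% (TMM) or 56.3% (DESeq2). With DESeq2 these 5 lost their calls (-0.58, -0.58, -0.48, -0.19 and -0.42). The Cdkn2c call (adjusted p = 0.0468) kept its side of the threshold only without Pol2S2P replicate 2 among the 6 leave-outs (-0.54 to -0.37, 0.0579 to 0.218 in the rest). The Ccnd3 call was lost without H3K27ac replicate 2 (-0.65, 0.05) or Pol2S2P replicate 1 (-0.56, 0.109). The flank beyond the Ccnd3 far end (-0.44, adjusted p = 0.0565) passed with the replicate block (0.0322), without H3K27ac replicate 3 (-0.70, 0.00748) and without Pol2S2P replicate 3 (-0.54, 0.0341).

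**Figure D4:**
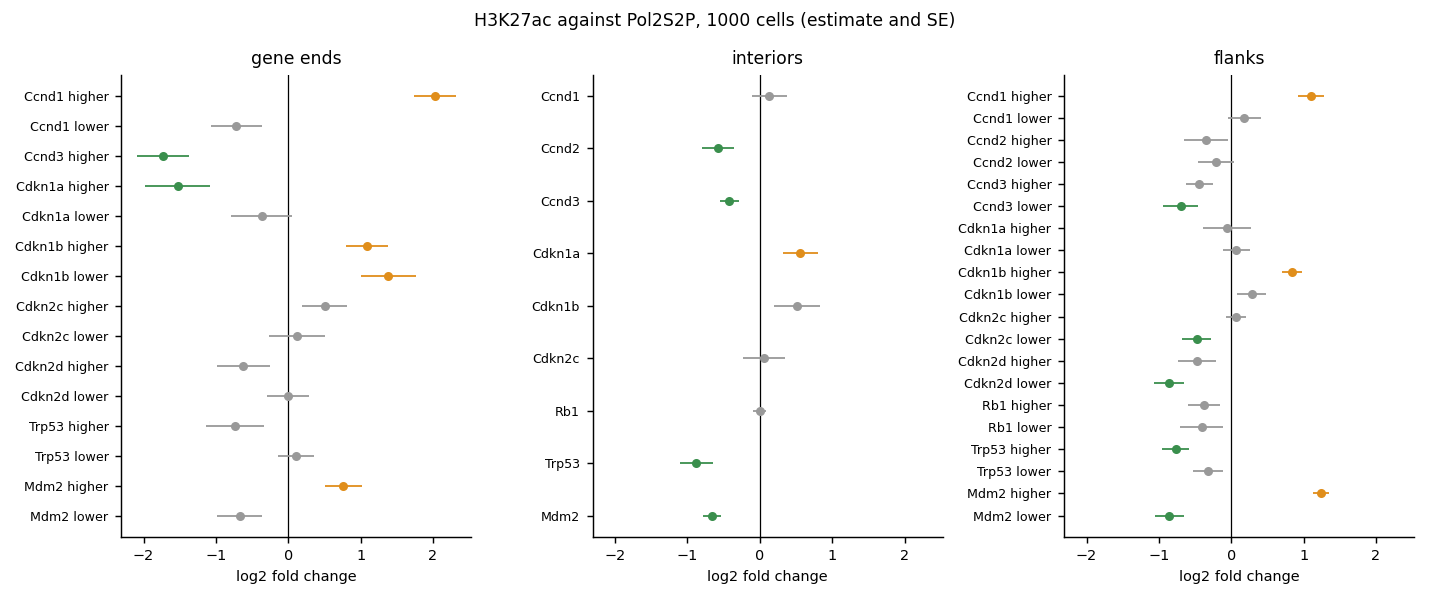
Log2 fold change of H3K27ac over Pol2S2P (horizontal axis) in 1000 cells with SE bars for the tested ends, interiors and flanks of the 10 genes, named by lower- or higher-coordinate side. Orange points passed as higher in H3K27ac, green as higher in Pol2S2P and grey did not pass; an end of Ccnd1 (2.02) lies farthest right and the far end of Ccnd3 (-1.73) farthest left.

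Over gene interiors in 1000 cells, 9 of 9 were tested, 4 were higher in Pol2S2P (Ccnd2, Ccnd3, Trp53 and Mdm2), 1 in H3K27ac (Cdkn1a) and 4 did not pass, where 37.7% of all 13641 interiors were higher in Pol2S2P and 10.1% in H3K27ac. Mdm2 had 48.8, 50 and 52.3 CPM of Pol2S2P against 31.2, 28.5 and 36.1 CPM of H3K27ac (-0.66 ± 0.13, adjusted p = 1.65e-06). Trp53 had 14.3, 13.0 and 18.6 CPM against 8.28, 6.63 and 9.98 CPM (-0.88 ± 0.23, adjusted p = 0.000532). All Pol2S2P libraries of both genes lay above all H3K27ac libraries. The median of all interiors was -0.31, and removing it moved the share of higher calls from 21.1% to 50.8% (TMM) or 55.5% (DESeq2). After the shift DESeq2 left neither called (Mdm2 -0.36, adjusted p = 0.0771; Trp53 -0.58, 0.139), while TMM kept both.

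The other interior calls were less firm. Ccnd3 (-0.42, adjusted p = 0.0051) was lost without Pol2S2P replicate 3 (-0.30, 0.105) and under TMM (-0.12, 0.499). Ccnd2 (-0.58, adjusted p = 0.0186) was lost without H3K27ac replicate 1 (-0.52, 0.0719), without Pol2S2P replicate 3 (-0.47, 0.112) and under TMM (-0.29, 0.305). Cdkn1a had 10.8, 12.9 and 13.4 CPM of H3K27ac against 8.50, 7.28 and 9.31 CPM of Pol2S2P (0.56 ± 0.24, adjusted p = 0.0463). That Cdkn1a call was lost without H3K27ac replicate 2 (0.53, 0.107) or 3 (0.50, 0.132) and without Pol2S2P replicate 1 (0.57, 0.0822) or 2 (0.47, 0.145). Rb1 was level, at 94.2 ± 4.32 CPM of H3K27ac and 94.2 ± 4.92 of Pol2S2P over 130 bins (0.00 ± 0.09), and passed as higher in H3K27ac once the shift was removed (TMM 0.29, adjusted p = 0.00291).

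In 100 cells, 5 ends were tested and 2 were higher in H3K27ac, Ccnd1 and the Mdm2 start, where 20.5% of 1849 ends were (51.7% higher among calls, 45.4% under TMM and 35.5% under DESeq2). Ccnd1 had 10.8, 15.4 and 15.5 CPM of H3K27ac against 3.16, 3.17 and 2.39 CPM of Pol2S2P (2.20 ± 0.47, adjusted p = 0.000202). Mdm2 had 15.4, 16.2 and 12.1 CPM against 3.80, 7.62 and 1.59 CPM (1.68 ± 0.44, adjusted p = 0.00201). Both genes were called in the same direction in 1000 cells, and in each the groups were apart. In 100 cells, however, both ends had enough counts for the test only in H3K27ac. The filter thus largely set the direction of these 2 calls, which cannot serve as support for those in 1000 cells. Of the 9 interiors in 100 cells only Ccnd3 passed, with 53.2, 45.1 and 43.0 CPM of Pol2S2P against 35.3, 33.1 and 25.0 CPM (-0.59 ± 0.22, adjusted p = 0.0255), where 28.1% of 10506 interiors were higher in Pol2S2P and 8.92% in H3K27ac (24.1% higher in H3K27ac among calls, 57.1% under TMM and 63.0% under DESeq2). It was lost without H3K27ac replicate 3 (-0.46, 0.125), without Pol2S2P replicate 1 (-0.49, 0.126) and under TMM (-0.29, 0.346). Under TMM Cdkn2c (1.25, adjusted p = 0.0205) and Rb1 (0.56, 0.00131) passed as higher in H3K27ac, as did Rb1 under DESeq2 (0.56, 0.00628). Mdm2 (-0.49, adjusted p = 0.0738) passed without Pol2S2P replicate 1 (-0.61, 0.0484).

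The list of 33 other genes gave 4 ends higher in H3K27ac and 10 higher in Pol2S2P of 34 tested in 1000 cells, beside 10.8% and 19.8% of all ends, with the largest differences at Zmat3 (-1.82), the p53 inhibitor Mdm4 (-1.63), cyclin A2 gene Ccna2 (-1.35) and the p53 target Ccng1 (-1.28). Over interiors 3 were higher in H3K27ac and 13 in Pol2S2P of 25, beside 10.1% and 37.7% of all interiors, led by E2f5 (-1.24). In 100 cells 2 of 9 ends were higher in H3K27ac and 0 in Pol2S2P, beside 20.5% and 19.1% of all ends. There 2 of 19 interiors were higher in H3K27ac and 11 in Pol2S2P, beside 8.92% and 28.1% of all interiors.

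Comparing cell numbers asks whether a profile holds at lower input. For H3K4me3, 0 of 10 tested ends of these genes differed between 10000 and 1000 cells, where 3.53% of 10239 ends did; 1 had an unadjusted p under 0.05, the Mdm2 start. It held 42.0 ± 3.14 against 30.8 ± 1.28 CPM, groups that did not overlap (0.46 ± 0.19, adjusted p = 0.146). For CTCF, 0 of 12 differed, where 0.214% of 14033 ends did and 4 of the 12 had an unadjusted p under 0.05, and the far end of Cdkn1b had the largest difference (6.03 ± 1.05 against 3.33 ± 0.821 CPM, 0.79 ± 0.32, adjusted p = 0.265). For H3K27ac in 1000 against 100 cells, 0 of 9 differed and 0% of 4798 ends did with edgeR or DESeq2, although 274 had an unadjusted p under 0.05, 1 of them among the 9. There the Cdkn1a start stood out by value, at 3.19, 1.33 and 3.79 CPM in 1000 cells and 9.22, 8.47 and 6.04 CPM in 100, without overlap (-1.51 ± 0.50, adjusted p = 0.77). For Pol2S2P interiors 0 of 8 differed, where 0.0154% of 12960 did, and Cdkn1a, the 1 with an unadjusted p under 0.05, in 100 cells was spread widely (6.96, 24.8 and 9.56 CPM). Whether the difference between targets itself changed with cell number was tested by an interaction: 0 of 14 ends of the 10 genes passed for either pair, as did 0 of 13009 and 0 of 9772 ends in all (860 and 454 at an unadjusted p under 0.05, of which 2 and 0 among the 14). With 3 libraries a group, a missed threshold does not show that the levels are equal.

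Comparing dual with single staining asks whether a profile differs when a second antibody is present. The single stainings were separate libraries, so the second antibody cannot be told apart from library preparation or depth. For CTCF 0 of 17 tested ends differed, where 0.00508% of 19686 did and 3 of the 17 had an unadjusted p under 0.05. The largest of the differences by size was at the lower-coordinate end of Ccnd2 (3.03 ± 0.998 against 1.74 ± 0.551 CPM, 0.79 ± 0.40, adjusted p = 0.531). The CTCF peaks inside genes were also present without the second antibody, with 5.81 and 5.26 CPM in the peak bin of Ccnd1, 10.3 and 8.72 in that of Ccnd2, 8.92 and 7.21 in that of Cdkn1a and 5.62 and 5.26 in that of Rb1.

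For Pol2S2P over interiors, 5 of 9 were lower in dual than in single staining (Cdkn1a, Ccnd1, Ccnd2, Trp53 and Mdm2), where 16.7% of 14397 interiors were lower and 10% higher (37.5% higher among calls, 56.4% under TMM and 62.5% under DESeq2). Cdkn1a differed most, with 8.50, 7.28 and 9.31 CPM in dual and 29.8 and 27.5 CPM in single staining (-1.77 ± 0.22, adjusted p = 2.33e-09). Ccnd1 had 9.87, 10.8 and 10.5 against 20.7 and 18.5 CPM (-0.92 ± 0.23, adjusted p = 0.00137), and Ccnd2 14.0, 15.2 and 18.0 against 26.9 and 27.9 CPM (-0.80 ± 0.19, 0.00128). Mdm2 had 48.8, 50 and 52.3 against 66.3 and 74.2 CPM (-0.47 ± 0.12, adjusted p = 0.00177). In all 5 genes every dual library lay below every single library. Ccnd3 (-0.23), Cdkn1b (-0.25), Cdkn2c (-0.38) and Rb1 (0.07) did not pass, and Rb1 had 88.9, 95.3 and 98.6 against 90.7 and 87.8 CPM. The Trp53 call (-0.65, adjusted p = 0.0131) was lost without dual replicate 1 (-0.59, 0.052) or 2 (-0.55, 0.0627) and without single replicate 1 (-0.64, 0.0871). Under DESeq2 Cdkn1a kept its call, whereas Ccnd1 (-0.83, adjusted p = 0.0632), Ccnd2 (-0.71, 0.0568), Trp53 (-0.56, 0.197) and Mdm2 (-0.39, 0.09) lost theirs. Of 25 other genes of the list, 11 were lower in dual staining and none higher, led by Bbc3 (-1.08), which encodes the p53-induced death factor PUMA.

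**Figure D5:**
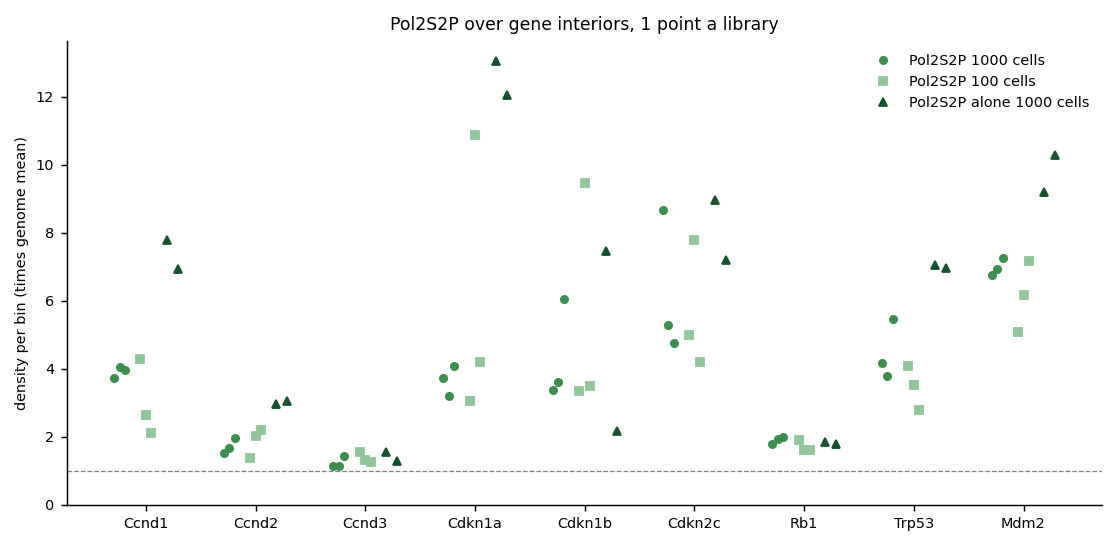
Pol2S2P density over gene interiors in times the genome mean (linear axis from 0, dashed line at 1), with 1 point per library for dual staining in 1000 and 100 cells and single staining in 1000 cells. Cdkn1a lies at 3.67 in dual and 12.6 in single staining of 1000 cells, whereas Rb1 (1.91 and 1.81) and Ccnd3 (1.23 and 1.43) lie close together.

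Per bin and relative to the genome mean, the order of H3K4me3 in 10000 cells, at the end of each gene richer in that mark, ran Trp53 (81.2), Cdkn2c (55.9), Cdkn1b (40.2), Ccnd1 (37.8), Mdm2 (36.8), Cdkn2d (29.2), Ccnd2 (19.2), Rb1 (8.87), Cdkn1a (5.01) and Ccnd3 (3.78), beside a median of 2.95 over all genes. Neighbours from Cdkn1b to Cdkn2d overlapped in their libraries, as did Cdkn1a and Ccnd3, whereas Trp53 stood clear of Cdkn2c. At the same ends the order for CTCF began Trp53 (24.4), Mdm2 (11.7) and Cdkn2c (10.6) and ended with Rb1 (2.31) and Cdkn1a (1.63). For H3K27ac in 1000 cells it began Ccnd1 (13.1), Mdm2 (10.4) and Trp53 (9.10), where Mdm2 overlapped both of its neighbours and Trp53 lay clear of Cdkn2c, the next at these ends (6.01), and ended with Ccnd2 (1.66) and Rb1 (0.671). Pol2S2P interiors in dual staining of 1000 cells were densest at Mdm2 (6.98), Cdkn2c (6.23) and Trp53 (4.47) and sparsest at Ccnd3 (1.23), below the median of all interiors (1.46). In single staining the order began Cdkn1a (12.6), Mdm2 (9.73) and Cdkn2c (8.07), followed by 1 other gene before Trp53, and Ccnd3 was again last (1.43). Ccnd2 therefore ranked seventh in H3K4me3 and next to last in H3K27ac, and Ccnd3, last in H3K4me3 at its ends, ranked second in Pol2S2P there in dual staining of 1000 cells (7.17). The ends of Ccnd3 and Cdkn2d ranked here are far ends, where Bysl ends and Kri1 starts, and the Trp53 window holds the Wrap53 start. Second starts inside genes do not enter this order. In 10000 cells H3K4me3 there was 29.1 CPM (Cdkn1a) and 28.35 CPM (Ccnd3) over 3 bins, beside 5.71 CPM at the ranked Cdkn1a end.

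Across the 10 group means at the richer end, on a log2(CPM + 0.5) scale, the gene nearest to each member by Euclidean distance was Lpp for Ccnd1 (0.56), Cbx2 for Ccnd2 (0.62), C1ql4 for Ccnd3 (1.52), Phyhd1 for Cdkn1a (0.87), Zdhhc17 for Cdkn1b (0.72), 1700123O20Rik for Cdkn2c (0.64), Psmb10 for Cdkn2d (0.38), Cibar1 for Rb1 (0.66), Azin1 for Trp53 (0.84) and Cyld for Mdm2 (0.54). Ccnd3 thus had no gene as near as the others had, and none of these neighbours is another of the 10.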

How the data were processed

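Deposited raw counts per 1 kb bin were used, made by the authors without scaling. Per the submitters' processing notes, bcl2fastq, HISAT2 2.1.0, deepTools 3.3.1 and GRCm38 were used; the sources used here do not give how duplicates were treated. Of 34 samples, 28 matched a column by name; 4 columns matched no sample and were not used. Library size was the total on the autosomes and X without 9 bins that lay above 50 times the mean bin in each of the groups. Intervals and floors cover counting error only.

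Groups were compared with edgeR 4.0.16 (quasi-likelihood test, filterByExpr, no further scaling) in R 4.3.3, over all 43254 ends, 18014 interiors, 43248 flanks or all bins, with p adjusted by Benjamini-Hochberg and called under 0.05; each fit held the compared libraries alone. The filter keeps a feature with enough counts in as many libraries as the smaller group holds. A feature can thus enter through the group where it is high, which largely sets the direction of its call. The test was checked on simulated data. Alternatives were TMM, DESeq2 1.42.0, other filters and windows, leaving out each library, the replicate block and, added after seeing the data, summed H3K4me3 libraries. Python 3.11.15, numpy 2.4.6, pandas 2.3.3 and matplotlib 3.10.9 were used. Both targets of a dual staining carry 1 replicate number in the titles, read here as the same stained cells, so the block is a pairing between targets. For each library the deviation from its group mean was taken at each gene end, and these deviations were correlated between same-numbered libraries. Correlations of deviations were 0.037 to 0.05 (10000 cells) and 0.08 to 0.103 (1000 cells) for H3K4me3 with CTCF. For H3K27ac with Pol2S2P they were 0.103 to 0.148 (1000 cells) and 0.105 to 0.181 (100 cells). They do not measure how alike the profiles of the targets are.

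Coordinates of genes, and strand where given, come from GRCm38.p6 RefSeq annotation; no genome sequence was used. All 10 members are described with the nearest gene. The bin of highest mean CPM is given for some loci and targets and not for all. Of the 33 other genes, at most 4 with the largest called difference are named in a comparison. The members and lists were chosen with earlier results of these data known.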

Additional observations from a re-analysis of the deposited data

How the results depend on the processing

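Over all comparisons, including those that called none of the 10 genes, most results kept their direction and side of the threshold under every alternative. Many calls did not. For H3K4me3 against CTCF at ends, and for H3K27ac against Pol2S2P over interiors in 1000 cells, most of the tested members changed. They changed direction or side of the threshold under at least 1 alternative, many of them with the scaling. Results that turned are given here. Calls lost on the ends, interiors and flanks stand beside them or here, though not all are listed. DESeq2 ended interior calls of Ccnd2 (-0.28, adjusted p = 0.5) and Ccnd3 (-0.11, 0.687) in 1000 cells and Ccnd3 in 100 (-0.29, 0.495). DESeq2 ended H3K4me3 against CTCF flank calls of Ccnd2 in 10000 cells (0.45, 0.0641) and, in 1000 cells, Ccnd1 (0.62, 0.145) and Cdkn1a (0.81, 0.066). TMM ended H3K27ac against Pol2S2P flank calls of Cdkn2c (-0.2, 0.499) and Ccnd3 (-0.43, 0.182). DESeq2 also ended calls of single bins, among them the bin at the starts of Bysl, Gm20517 and Med20 (0.41), and flanks of 10 kb ended that of the Ccnd3 far flank in 1000 cells (0.65), of the Mdm2 far flank there (-0.53) and of the Cdkn1a start flank in 10000 cells (0.09). The cause was not tested. TMM and DESeq2 rescale each library; the median over all ends in 10000 cells went from 1.73 to 0.03 and 0.00. Turned results given with an adjusted p passed as lower in H3K4me3. Under TMM the H3K4me3 against CTCF difference turned in 10000 cells at the starts of Cdkn2d (-0.12), Mdm2 (-0.06) and Cdkn1a (-0.05). It also turned in the bins of Ccnd3 starting at 47501811 (-0.67, adjusted p = 0.0222), Cdkn1a at 29094886 (-0.43, 0.0482), Trp53 at 69574721 (-0.74, 0.0469) and 69578721 (-0.06) and Mdm2 at 117710521 (-0.74, 0.02). In 1000 cells it turned at Ccnd2 (-0.40), Rb1 (-0.09) and the starts of Cdkn2d (-0.68), Mdm2 (-0.39) and Trp53 (-0.35, adjusted p = 0.038). Under DESeq2 it turned in 10000 cells at the starts of Cdkn2d (-0.14), Mdm2 (-0.09), Trp53 (-0.01) and Cdkn1a (-0.10). Bins that turned were those of Ccnd1 at 144937411 (-0.18), Ccnd3 at 47501811 (-0.90, adjusted p = 0.0385), Cdkn1a at 29094886 (-0.68, 0.0324), Cdkn2d at 21290916 (-0.13), Trp53 at 69578721 (-0.30) and Mdm2 at 117710521 (-0.98, 0.0394). In 1000 cells DESeq2 turned Ccnd2 (-0.46), Rb1 (-0.03) and the starts of Cdkn2d (-0.68), Mdm2 (-0.40) and Trp53 (-0.36). With flanks of 10 kb the lower-coordinate flank of Ccnd2 in 10000 cells turned (-0.82, adjusted p = 0.0482). Counts of calls over all features moved by over 1.5 times as follows. H3K4me3 against CTCF ends in 10000 cells went from 12106 to 7766 (DESeq2), bins from 36683 to 55086 (minimum count 5), ends in 1000 cells from 9145 to 4959 (TMM) and 3880 (DESeq2), and flanks in 1000 cells from 15701 to 9497 (10 kb). H3K27ac against Pol2S2P in 1000 cells went from 3312 to 1671 (DESeq2) and 6965 (ends of 2.5 kb), interiors from 6524 to 3924 (DESeq2), and flanks from 12731 to 6480 (DESeq2) and 8283 (10 kb). In 100 cells ends went from 733 to 467 (DESeq2) and 2143 (2.5 kb) and interiors from 3890 to 2134 (DESeq2). H3K4me3 between cell numbers went from 361 to 85 (TMM), 9 (DESeq2), 138 (no filter), 126 (replicate block), 4 (summed libraries) and 71 to 350 (leaving out a library). CTCF between cell numbers went from 30 to 0 (TMM, DESeq2 and replicate block), 18 (no filter), 10 (2.5 kb) and 0 to 25 (leaving out a library). H3K27ac between cell numbers went from 0 to 1 (no filter) and 0 to 4 (leaving out a library), and Pol2S2P from 2 to 1 (DESeq2) and 0 to 6 (leaving out a library). CTCF dual against single went from 1 to 0 (TMM, DESeq2, no filter and each left-out library), 4 (replicate block) and 20 (2.5 kb). Pol2S2P dual against single went from 3847 to 1541 (DESeq2) and 2375 to 3319 (leaving out a library). The interaction counts went from 0 to 1 for H3K4me3 and CTCF (2.5 kb) and 0 to 1 for H3K27ac and Pol2S2P (leaving out a library). The replicate block changed 1 call on the 10 genes, the far flank of Ccnd3 (adjusted p = 0.0322). Between cell numbers, and between dual and single staining, same-numbered libraries share only a number (correlations of deviations from the group mean of -0.039 to 0.09). Depth limits the Ccnd3 start, tested in no comparison, and the 100-cell ends, of which 5 of 20 were tested.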
